A study of Mus musculus with 8 samples.

Results

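MYSM1 is a deubiquitinase that removes ubiquitin from histone H2A, and the study mapped where it sits in the chromatin of mouse blood progenitors. The regions described here are MYSM1-FLAG peak summits that lie inside annotated gene bodies, more than 1 kb from any transcription start site (TSS), and beside a long unbroken run of purines on 1 strand. A summit was taken when at least 40 purines (A and G) or at least 40 pyrimidines (C and T) followed each other within 100 bp on either side, and summits of adjacent pairs 2000 to 3000 bp apart were left out. Of 2099 deposited summits, 307 met this rule (14.6%). Another 473 (22.5%) lay at such runs outside gene bodies, and 164 (7.81%) were unpaired intragenic summits without a run. The choice used positions, annotation and sequence, and no peak height.

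The MYSM1-FLAG libraries came from 2 established lines, both carrying mouse MYSM1 fused to a triple FLAG tag as a stable, puromycin-selected transgene. Ba/F3 is a pro-B line kept on conditioned medium as its interleukin 3 source, and HPC7 is a multipotent progenitor line kept on stem cell factor. Chromatin was fixed with formaldehyde and precipitated with the M2 antibody to FLAG. The labels give 1 such library for each line, beside 1 input, 1 H2AK119ub and 1 H3K27ac library for each, so there is no replicate error. The deposited list names neither line, so the lines cannot be told apart, and it gives no score and no read depth. The labels do not say whether each line is a clone, and none of the 8 names a FLAG precipitation from cells without the tag. Intervals below are exact 95% Clopper-Pearson intervals and cover counting error only.

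Runs of purines on 1 strand, paired with pyrimidines on the other, are common in mammalian introns and often arise as tandem repeats. Such tracts can fold into an intramolecular triplex, and their sequence is hard to place for short reads because much of it recurs elsewhere in the genome. Many such tracts grow and shrink by slippage of the copying polymerase, so that their unit and length differ between sites. These are general facts about such sequence and not results of these data.

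The windows below show runs whose unit had a high share of loci with a summit, and one of the same composition without a summit. Each holds the 100 bp on either side of a position, on the mm9 genome, read 5′ to 3′ on the strand that carries the purines. Capitals mark the unbroken purine runs of at least 40 bases, and the position itself is the middle base. Sntg1, at chr1:8470130-8470330 (plus strand), repeats AAAGGAAG, and Dpp10, at chr1:125797072-125797272 (minus strand), repeats AAGAAGG.
Sntg1: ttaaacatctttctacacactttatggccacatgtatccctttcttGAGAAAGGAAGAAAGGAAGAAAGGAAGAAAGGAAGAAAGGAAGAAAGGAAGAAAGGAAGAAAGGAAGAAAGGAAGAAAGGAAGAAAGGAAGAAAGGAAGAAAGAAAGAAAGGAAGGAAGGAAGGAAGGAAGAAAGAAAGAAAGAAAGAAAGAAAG
Dpp10: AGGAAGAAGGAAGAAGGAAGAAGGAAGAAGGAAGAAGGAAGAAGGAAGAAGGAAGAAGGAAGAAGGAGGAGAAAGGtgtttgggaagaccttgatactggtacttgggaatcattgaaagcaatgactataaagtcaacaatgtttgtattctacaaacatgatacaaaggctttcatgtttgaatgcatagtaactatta
The last window carries no summit. It is centred on a perfect repeat of AAAGAAGG in Ldb2 at chr5:45094531-45094731 (plus strand), and it is shown because AAAGAAGG is AAAGGAAG read in the opposite direction.
Ldb2: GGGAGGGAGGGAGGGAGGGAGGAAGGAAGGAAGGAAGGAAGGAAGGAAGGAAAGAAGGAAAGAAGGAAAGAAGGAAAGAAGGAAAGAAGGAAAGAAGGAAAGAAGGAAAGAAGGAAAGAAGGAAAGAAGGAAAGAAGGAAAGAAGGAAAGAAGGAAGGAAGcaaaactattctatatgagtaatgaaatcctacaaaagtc

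Purine runs of this length are frequent, and few carry a summit. Runs of at least 40 bp within 200 bp of each other were joined into loci, and a locus counted as carrying a summit when an unpaired one lay within 100 bp of a run. Of 72721 such loci in gene bodies and more than 1 kb from a TSS, 321 carried a summit (0.441%, interval 0.395% to 0.492%). Outside gene bodies 503 of 123764 did (0.406%, interval 0.372% to 0.443%). The 2 shares did not differ detectably (two-sided Fisher's exact test, odds ratio 1.09, adjusted p = 0.413 over 10 tests). The 321 loci include 306 that hold 1 of the 307 summits, and 15 where the summit met the locus rule but not the summit rule. All p-values below are adjusted over the same 10 tests. Copies of a repeat share their sequence and are not independent, so these p-values are too small by an unknown amount.

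The runs at the summits were long. Their median length in the genome was 196 bp (interquartile range 130 to 288 bp, lowest 41 bp, highest 2119 bp), against 65 bp (50 to 99 bp) at the intragenic loci without a summit. A length of at least 100 bp was found for 276 of the 307 (89.9%, interval 86.0% to 93.0%) and for 17895 of the 72400 loci without a summit (24.7%). The intergenic run summits had a similar median of 198 bp, with an interquartile range of 141 to 294 bp. Loci were sorted by the longest of their joined runs, which can exceed the run beside the summit. Against the background of 0.441%, none of 18084 intragenic loci with a longest run of 40 to 49 bp carried a summit (interval 0% to 0.0204%). The share was 0.0155% at 50 to 59 bp (2 of 12910) and 0.0326% at 60 to 79 bp (5 of 15316). It was 0.219% at 80 to 99 bp, 0.724% from 100 bp to under 150 bp and 2.72% at 150 bp or more (224 of 8249, interval 2.38% to 3.09%). Loci with a run of at least 60 bp carried a summit more often than shorter ones (0.764% of 41727 against 0.00645% of 30994, two-sided Fisher's exact test, adjusted p = 3.41e-73). Among loci with 4 perfect units of AAAGG alone, the same contrast was 17.9% against 4.17% and was not called (Fisher's exact test, adjusted p = 0.0515).

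**Figure D1:**
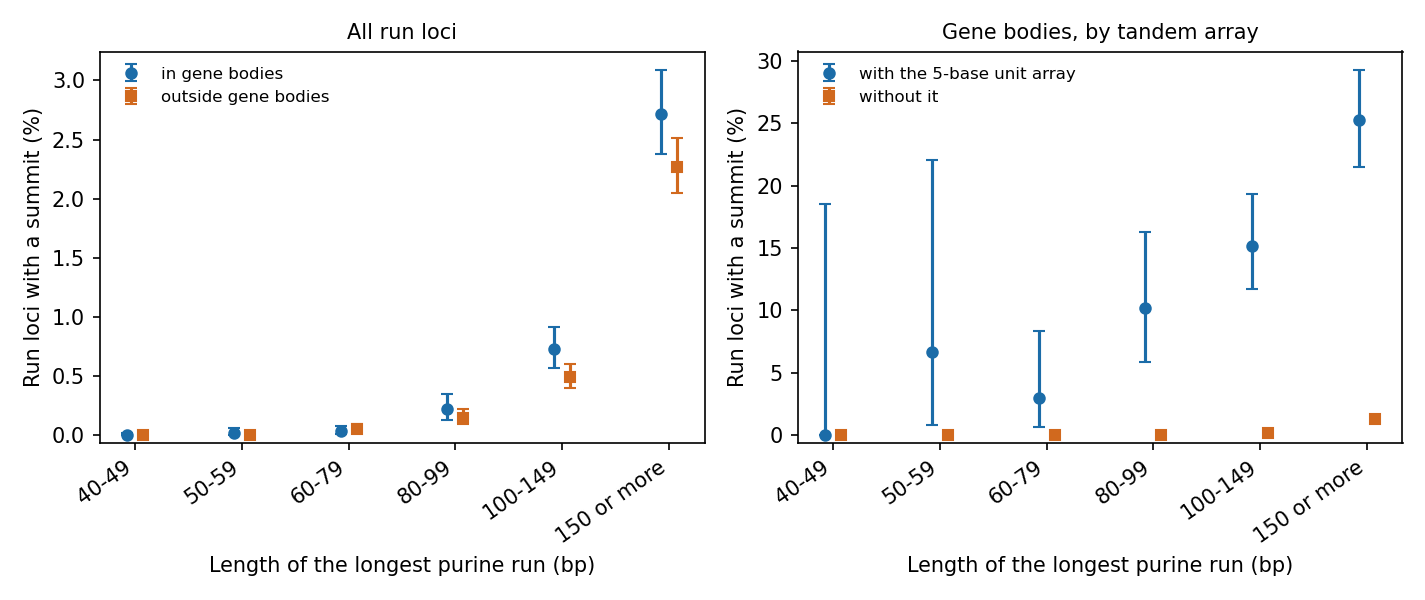
Share of run loci that carry a summit (%, vertical axis) by the length of the longest run in bp (horizontal axis), with exact 95% intervals. On the left, loci in gene bodies reach 2.72% and loci outside them 2.27% at 150 bp or more; on the right, intragenic loci with 4 perfect AAAGG units reach 25.3% and those without reach 1.29%.

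Length alone did not separate the loci, and the repeated unit differed as well. Within 100 bp of the summit, 212 of the 307 (69.1%, interval 63.6% to 74.2%) had 4 perfect units of AAAGG, against 956 of the 72400 intragenic loci without a summit (1.32%, two-sided Fisher's exact test, odds ratio 167, adjusted p = 3.46e-308). AAAGG had already stood out in earlier work on these data, so this is not independent support for it. Loci were searched for these units within 100 bp of the middle of their longest run, so an array farther off was not counted there. Seen from the genome, 200 of 1156 intragenic loci with such an array carried a summit (17.3%), and 0.169% of 71565 without one did. The share among intergenic run summits was 71.2% (337 of 473) and did not differ detectably from 69.1% (Fisher's exact test, odds ratio 0.901, adjusted p = 0.652). Guanine made up a median of 41.2% of the bases of the runs (interquartile range 37.5% to 45.7%), against 49.1% (39.6% to 54.8%) at loci without a summit.

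The unit of each run was read from its longest perfect stretch with a period of at most 10 bases, written in alphabetical rotation. A run can also hold arrays of other units. The 307 runs had 28 units, of which 8 were shared by at least 5 runs each and covered 279 of them. AAAGG led with 184 runs, followed by AAGGG with 29, AAAGGAAG with 26, AAGAAGG with 15, AAG with 9, AAAG with 6, and AGAGG and AAAGGGAG with 5 each. The first in genome order lay in Cpa6, a carboxypeptidase gene, for AAAGG, in Nmnat2, which encodes an enzyme of NAD synthesis, for AAGGG, and in Sntg1, a syntrophin gene, for AAAGGAAG. For AAGAAGG it was Dpp10, for AAG Plxdc2, for AAAG the collagen chain gene Col4a3, for AGAGG Gm14371, and for AAAGGGAG the presynaptic scaffold gene Rims1. In Nmnat2 the 43 bases of the run within 100 bp of the summit repeat AAAGG. Its AAGGG stretch lies farther along the run of 235 bp.

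These counts differ from what is common in introns. AG was the longest perfect stretch at 25489 intragenic loci, of which 2 carried a summit (0.00785%). AAAG was it at 7578 loci with 11 summits (0.145%), AAGG at 5769 with 5 (0.0867%), AGGG at 4702 with 0 (interval 0% to 0.0784%), and AAG at 2686 with 9 (0.335%). AAAGG was it at 1058 loci with 185 summits (17.5%, interval 15.2% to 19.9%), and AAGGG at 681 loci with 32 (4.7%, interval 3.24% to 6.57%). AAAGGAAG had 29 of 172 (16.9%, interval 11.6% to 23.3%) and AAGAAGG had 15 of 121 (12.4%, interval 7.11% to 19.6%). The groups of units thus lay far apart, although all consist of purines alone. These units were compared after their values had been seen, so the shares are given as a description with no test.

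Differences between units remained when the perfect stretch was long for each of them. With a stretch of 80 bp or more, 41.5% of 287 intragenic AAAGG loci carried a summit (interval 35.7% to 47.4%), as did 21 of 24 for AAAGGAAG (87.5%, interval 67.6% to 97.3%) and 9 of 11 for AAGAAGG (81.8%, interval 48.2% to 97.7%). AAGGG was lower at 18 of 212 (8.49%, interval 5.11% to 13.1%). Some AAGGG runs also had 4 perfect AAAGG units within 100 bp of the summit, as in Nmnat2, and others did not, as in 1110018J18Rik. The share for AAGGG is thus not that of AAGGG alone. AAGAG, which has the bases of AAAGG in another order, had 0 of 374 loci (interval 0% to 0.981%). AGAGG, which has the bases of AAGGG in another order, had 4 of 384 (1.04%, interval 0.285% to 2.65%). All 5 AGAGG runs at the intragenic summits also had 4 perfect AAAGG units within 100 bp of the summit. Gm14371 and Slc5a9 are examples. The share for AGAGG is thus not that of AGAGG alone either, and this pair does not separate the order of bases from nearby AAAGG arrays. With the same lower bound of 80 bp the count was 0 of 555 for AAAG (interval to 0.662%), 0 of 342 for AGAGGG (interval to 1.07%), 0 of 202 for AG (interval to 1.81%) and 0 of 131 for AAGG (interval to 2.78%), and AAG had 2 of 1049 (0.191%). The units share this bound and were not matched on length. Median stretches were 93 bp for AAAGG, 118 bp for AAAGGAAG and 93 bp for AAGAAGG (median runs 156, 230 and 252 bp). They were 90 bp for AAGAG, 107 for AGAGGG, 89 for AAG, 86 for AAAG, 86 for AG and 84 for AAGG. The median runs of these were 168, 148, 157, 150, 100 and 142 bp. The runs outside gene bodies gave a like order, with 199 of 506 for AAAGG (39.3%), 30 of 43 for AAAGGAAG (69.8%), 9 of 13 for AAGAAGG (69.2%) and 2 of 792 for AAGAG (0.253%).

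Direction along the purine strand differed too. AAAGG and AAGAAGG read the same in either direction once rotated, but AAAGGAAG does not, and its mirror is AAAGAAGG. Both have the same bases, the same length and the same composition. None of 88 intragenic AAAGAAGG loci carried a summit (interval 0% to 4.11%), against 29 of 172 for AAAGGAAG. With a stretch of 80 bp or more the counts were 0 of 8 (interval 0% to 36.9%) against 21 of 24 in gene bodies, and 0 of 20 (interval 0% to 16.8%) against 30 of 43 outside them. The Ldb2 repeat printed above is 1 of those 8, with a perfect stretch of 111 bp in a run of 229 bp, and the nearest summit was 1830057 bp away. AAAGGGAG carried a summit at 5 of 32 intragenic loci (15.6%, interval 5.28% to 32.8%) and its mirror AAAGAGGG at 0 of 26 (interval 0% to 13.2%), which overlap.

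**Figure D2:**
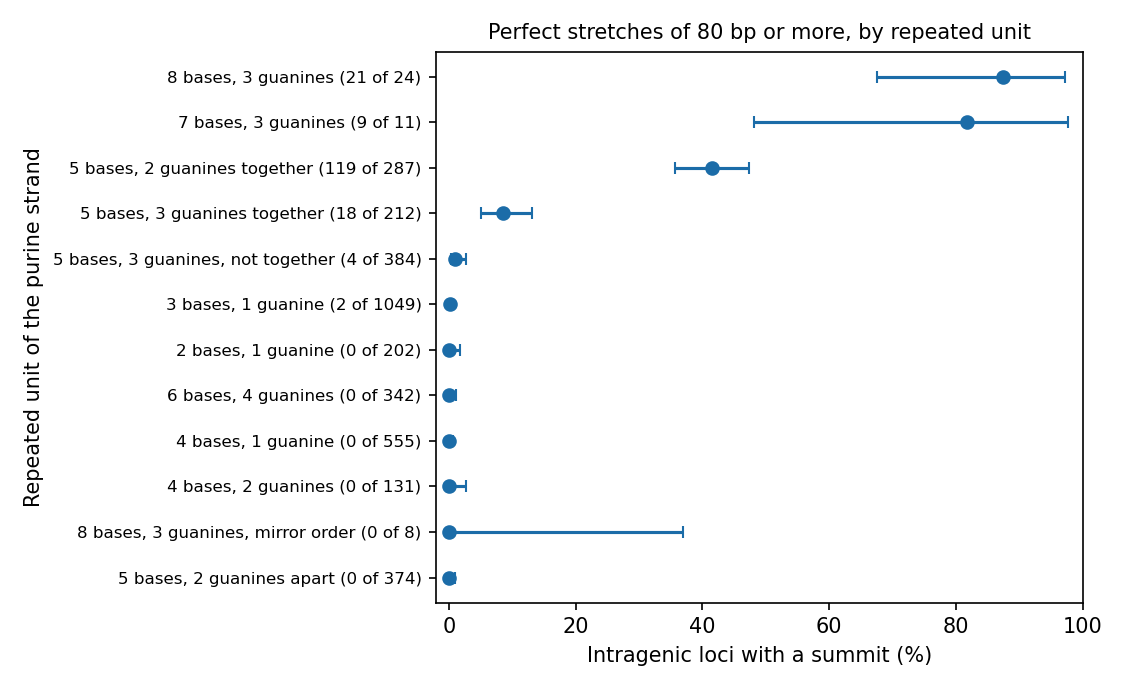
Share of intragenic loci that carry a summit (%, horizontal axis) for 12 repeated units with a perfect stretch of 80 bp or more, with exact 95% intervals and, beside each unit, the number of loci with a summit of all loci. The unit with 8 bases and 3 guanines is at 87.5%, and the same unit in mirror order is at 0 of 8. The unit is that of the longest perfect stretch, and a run can hold others.

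The rule asks for at least 40 bases of run within 100 bp, so every summit lies on a run or near its edge by choice. The same holds for the intergenic run summits. In 197 of 307 (64.2%, interval 58.5% to 69.5%) the summit fell inside the run, against 291 of 473 intergenic run summits (61.5%, Fisher's exact test, odds ratio 1.12, adjusted p = 0.652). The median distance from the centre of the run was 67 bp (interquartile range 30 to 112 bp). Where the summit lay outside the run, it lay beyond the 3′ end of the purine strand in 90 of 110 (81.8%, interval 73.3% to 88.5%), as in Trp73 and Kdm2b. Inside the runs no such side was seen (93 of 197 on the 3′ side of the centre, 47.2%, interval 40.1% to 54.4%). The intergenic run summits, a separate set of regions, gave 146 of 182 outside the run (80.2%, interval 73.7% to 85.7%) and 142 of 291 inside it (48.8%). A side of the genome's own coordinates moved with this: outside the run the 3′ side held 56 of 60 where the purines were on the plus strand (93.3%) and 34 of 50 where they were on the minus strand (68.0%, interval 53.3% to 80.5%). Over all 307, 196 lay toward higher coordinates from the centre (63.8%). That share was 72 of 110 outside the run (65.5%) and 124 of 197 inside it (62.9%). The part of that shift in the result was not tested. For intergenic runs the minus-strand count was 33 of 61 (54.1%, interval 40.8% to 66.9%), which does not exclude equal sides.

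**Figure D3:**
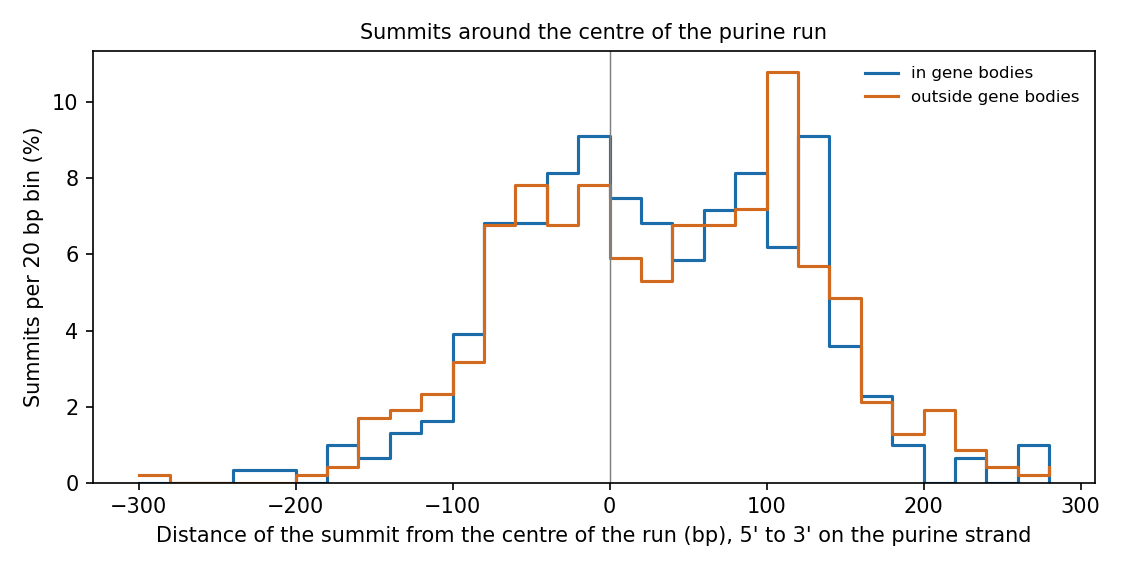
Distance of summits from the centre of their purine run in bp, 5′ to 3′ on the purine strand (horizontal axis), as the share of summits per 20 bp bin (vertical axis), for the 307 summits in gene bodies and the 473 outside them. Both sets spread further on the 3′ side than on the 5′ side, and 2 summits of each set lie beyond the axis.

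Much of this sequence recurs in the genome. Copy number was taken as the median count, over the genome and both strands, of the 31-base words in the window of 100 bp on either side. It was 1 at 151 of the 307 summits (49.2%, interval 43.5% to 54.9%), above 100 at 68 (22.1%) and at most about 25400. The share with a copy number of 1 was 50.1% among intergenic run summits (237 of 473, Fisher's exact test, adjusted p = 0.826) and 54.9% among intragenic summits without a run (90 of 164, Fisher's exact test, adjusted p = 0.413). Fli1, whose summit fell inside its AAAGG array, had a copy number of 24760, and Trp73 and Kdm2b, with the summit beside the array, had 1. The sources used here do not give the treatment of reads with several placements, and its part in these counts was not tested.

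Nearly all of the summits were intronic. An intron held 305 of 307 (99.3%), and 2 fell in exons: the summit at position 84495743 of chromosome 5 in Epha5, an ephrin receptor gene, and that at 2095541 of chromosome Y in Rbmy1a1, a germ cell gene of a multicopy family whose copies may share reads. Protein-coding genes hosted 289 (94.1%), lincRNA genes 10, processed transcripts 6 and pseudogenes 2, and 11 summits lay in more than 1 gene. The intron and host type shares of run loci without a summit are not given, so these counts cannot be read as particular to the summits. The host genes were long, with a median of 134 kb (interquartile range 60.6 to 325 kb) over the 307 summits, against 15.4 kb over all protein-coding genes. The first median counts summits and the second counts genes. Host length at run loci without a summit is not given, so whether the summits differ from other runs in this was not tested. The median distance to a TSS was 14 kb (5.36 to 38.9 kb), against 17.5 kb at intragenic loci without a summit.

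The place within the gene did not differ detectably from that of other runs. The first intron of a transcript held 107 of 307 summits (34.9%) and 28307 of 72400 loci without a summit (39.1%, Fisher's exact test, odds ratio 0.833, adjusted p = 0.357). The 5′ part of the gene up to its midpoint held 150 of 296 in a single gene (50.7%), against 52.0% of such loci (Fisher's exact test, odds ratio 0.948, adjusted p = 0.759). The purines lay on the sense strand of the host gene in 108 of 297 (36.4%, interval 30.9% to 42.1%), leaving out sites with genes on both strands. At loci without a summit the sense share was 42.3% (29867 of 70655), so purine runs of introns lay on the template strand more often in both sets. The difference was not called (Fisher's exact test, odds ratio 0.78, adjusted p = 0.132). Without loci that hold 4 perfect AAAGG units it was called, at 28.9% against 42.3% (Fisher's exact test, odds ratio 0.554, adjusted p = 0.034). In loci with those units alone, where most of the summits lie, it was not called. The shares there were 39.6% against 40.5% (Fisher's exact test, odds ratio 0.964, adjusted p = 0.876).

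**Figure D4:**
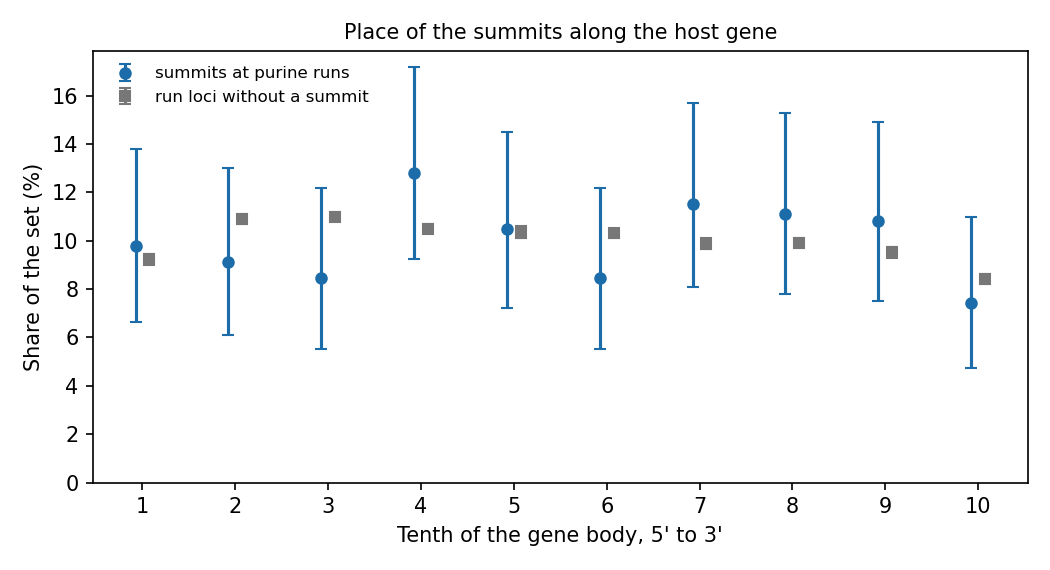
Share of summits at purine runs and of run loci without a summit (%, vertical axis) in each of 10 equal parts of the host gene body from 5′ to 3′ (horizontal axis), for sites in a single gene, with exact 95% intervals. The summits hold between 7.43% and 12.8% per part and their intervals cover the other set in each.

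Counting 1 host gene for each summit, the 307 summits lay in 297 genes, and 279 of the 22367 protein-coding genes held at least 1 (1.25%). Among transcription factors of blood cells, 3 of 39 held one: Fli1, an ETS factor of megakaryocytes and stem cells, Zbtb16, a zinc finger repressor, and Bcl11a, a repressor of fetal globin genes and a B cell factor. In Fli1 (chromosome 9, 32229793 to 32348974, minus strand) the summit at 32266313 was 11800 bp from a TSS at an AAAGG run of 196 bp. In Zbtb16 the summit at 48594579 of chromosome 9 lay at a run of 292 bp, and in Bcl11a the summit at 24003903 of chromosome 11 lay at one of 392 bp, inside Gm12064 as well. Of the 317 run loci in the genes of this list, 3 carried a summit (0.946%, interval 0.196% to 2.74%), an interval that covers the intragenic background of 0.441%.

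The p53 list had 2 of 30 genes, and the list of Polycomb and H2A ubiquitin genes had 1 of 36, which is 6.67% and 2.78% against 1.25% of protein-coding genes. Of their run loci, 2 of 70 (2.86%, interval 0.348% to 9.94%) and 1 of 98 (1.02%, interval 0.0258% to 5.55%) carried a summit, and both intervals cover 0.441%. Apaf1, whose protein forms the apoptosome, held a summit at 90533206 of chromosome 10 beside an AAAGG run of 134 bp. Trp73, which encodes a p53 relative, held one at 153503739 of chromosome 4 beside a run of 183 bp. Kdm2b, a histone demethylase gene of a Polycomb complex, held one at 123347017 of chromosome 5 beside a run of 80 bp. None of 26 B lineage genes, 37 genes of cytokine receptors and their signalling or 78 cytosolic ribosomal protein genes held one. Those lists offered 135, 132 and 2 run loci, and the upper bounds of 2.7%, 2.76% and 84.2% for a count of 0 all cover 0.441%.

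Long genes of neuronal adhesion and synapses held some of these summits, at a share of their run loci near the background. Of 51 genes with a median length of 860 kb, 11 held at least 1 (21.6%, against 1.25% of protein-coding genes). They offered 3565 run loci, of which 17 carried a summit (0.477%, interval 0.278% to 0.762%), near the intragenic background of 0.441%. Csmd1 and the sorting receptor gene Sorcs1 held 2 each. In Sorcs1 the summits at 50236990 and 50398356 of chromosome 19 lay at runs of 211 and 327 bp, the first with an AAAGG stretch and the second with AAAGGAAG. The list's other hosts included Macrod2, the scaffold genes Magi2 and Dlg2, the adhesion gene Ntm, the protocadherin genes Pcdh9 and Pcdh15, Csmd3 and Sorcs3.

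Several summits in 1 gene were rare. Of 297 host genes, 10 held 2 summits (3.37%) and no gene held more. On chromosome 2 these were Fam23a, with summits 1581 bp apart, the GTPase regulator gene Arhgap15, 136150 bp apart, Elp4, a subunit gene of Elongator, 18905 bp apart, and the semaphorin gene Sema6d, 347443 bp apart. Others outside the neuronal list were St3gal4, a sialyltransferase gene on chromosome 9 with summits 8672 bp apart, Fam3b on chromosome 16 with summits 23878 bp apart, and Gm20388, a gene model that spans 4430 kb. The runs in 1 gene did not always share a unit: in Fam23a they were AAGAAGG and AAAGG, and in Arhgap15 both were AAAGG. Another summit of the list lay within 10 kb of only 8 of the 307 (2.61%), and the median distance to the nearest was 458 kb.

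The extremes of length show the range of sequence. The longest runs were 2119 bp in Gm20388 and 1099 bp in Abcc1, a drug efflux pump gene, and both had AAGAAGAAGG as their longest perfect stretch. Other long runs were 982 bp in 1110018J18Rik, 883 bp in 1700007B14Rik, 856 bp in Mef2a, which encodes a MADS box factor, and 753 bp in Col4a3. Frmd3 held one of 705 bp with AAAGG. At the other end, 1110051M20Rik and Trerf1 had 40 purines inside the window and Hmcn1 and Tspan5 had 41, and their whole runs were 103, 125, 108 and 105 bp long. Gm11033, named after its values were seen, also had 41, and there the whole run was 41 bp, the shortest of the 307. Just outside the rule were summits in Banf2 with 39, and in 2610037D02Rik and Pbx3 with 38, whose windows also touched runs that continued to 546, 125 and 148 bp. Only 2 of the 307 runs (0.651%) were shorter than 50 bp in the genome.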

How the data were processed

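The authors deposited 1 list of MYSM1-FLAG summit positions with no header, score or cell line. Bowtie 1.0.0, MACS 1.4.1 and the mm9 build are named in the submitters' processing notes. The sources used here do not give thresholds, the control or whether lines were pooled. Start equals end on every line, and the counting base (0 or 1) of the positions is unknown, which could move a distance by 1 bp. Positions were joined to the NCBIM37 genome (mm9) and the GENCODE M1 annotation with samtools 1.23.1, pysam 0.24.0 and Python 3.11.15. Runs, loci, units and copy number were computed as the report states. Gene bodies and TSSs include all biotypes, and a summit in several genes was assigned to the longest protein-coding one. Shares were compared with two-sided Fisher's exact tests (SciPy 1.17.1) and Benjamini-Hochberg adjustment over 10 tests, called below 0.05; the code was tested on simulated summits. The regions and gene lists were chosen with earlier results of these data known. Of 40 blood factors and 79 ribosomal protein genes listed, 39 and 78 matched a protein-coding symbol. Genes are named by fixed rules: hosts of 2 or more summits, the longest and shortest runs, exonic summits, list genes, and the first summit of each shared unit. The units at loci and the mirror units were compared after their values were seen. Settings tried instead were run length, window, TSS distance, gene type, locus joining, autosomes, pairs, repeats and word length. A few genes and sequences that these rules select are not reported here.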

Additional observations from a re-analysis of the deposited data

How the results depend on the processing

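Of 59 recomputed values, 54 kept their direction and their side of the threshold, or, for the number of summits, stayed within 1.5 times 307 (220 to 323). The 54 include copy number values that asked for more than 50% of the words to occur once. That setting restates a median count of 1, so those values could not change. The odds ratio for gene bodies against other loci ranged from 0.943 to 1.18 and was not called under any of its 12 settings. It turned below 1 in loci with 4 perfect AAAGG units alone (odds ratio 0.943, 17.3% against 18.2%), as the 5′ part of the gene turned above 1 there (odds ratio 1.06). In the same loci the contrast of run lengths lost its call (odds ratio of 5.0 and adjusted p = 0.0515, Fisher's exact test), with few short runs to compare. Without those loci the strand difference gained a call (odds ratio of 0.554 and adjusted p = 0.034, Fisher's exact test), and no shorter run carried a summit (0.298% against 0%, adjusted p = 1.35e-29, Fisher's exact test), so that odds ratio has no finite value. The adjusted p of the strand difference ranged from 0.034 to 0.876 over 6 settings. With 24-base words in place of 31, windows with a copy number of 1 were rarer than at intragenic summits without a run (odds ratio 0.532, 38.1% against 53.7%, adjusted p = 0.00434, Fisher's exact test); the cause was not tested. Settings that take only AAAGG loci, and the gene body contrast without them (odds ratio 1.18), were added after the data were seen. A stricter peak score was not run, since the list gives none. With 1 library per line and target, and unknown depth, no value here has a replicate error.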
